A study of Mus musculus with 4 samples.

Results

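The cells described here are dividing cells of the postnatal mouse hypothalamus in which no RNA molecule of Pdgfra or Sox10 was counted, genes that encode a receptor and a transcription factor of oligodendrocyte precursors. They were chosen by measured values, raw counts of unique molecular identifiers (UMIs, each 1 captured RNA molecule) in the P7 sample. A cell needed at least 1 UMI of Mki67, at least 3 of Mki67 and Top2a together, 0 of Pdgfra and Sox10, at most 1 of Foxj1 and at least 2 of Slc1a3 and Fabp7. This left 119 of the 8917 P7 cells, or 1.33% (95% exact binomial interval 1.11 to 1.59%), and of the 43261 cells in the series. They held 1691453 UMIs, with a median of 13315 per cell and a range of 4102 to 34943. All groups share the strain C57BL/6J, the genotype Rax-CreERT2::Ai14 and 1 dose of tamoxifen, which the design text places at E9 and the protocol slightly later. In this model a Cre recombinase that is active only under tamoxifen is made where Rax is on, and recombination switches on the red protein tdTomato. Live tdTomato-positive cells were sorted, so unlabelled hypothalamic cells are not represented. The samples are titled E11, E14, P0 and P7 (other labels place E11, E14 and P7 slightly later). Each age was 1 sample, and how many animals it pooled is not given in the sources used here. No comparison here therefore has a replicate or a p-value, and every interval covers counting error only.

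Progenitors of the embryonic hypothalamus are radial glia, which line the third ventricle and give rise to neurons first and glia later. After birth most dividing cells of the brain are glial: oligodendrocyte precursors, and astrocytes that still multiply locally. Proneural factors mark progenitors that amplify and commit, while Notch signalling through Hes genes holds progenitors in an uncommitted state, and EGF receptor marks activated progenitors in other postnatal germinal zones.

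The rule set the levels of 7 genes, which are given here as a description. Members had a median of 5 Mki67 UMIs (at most 46) and of 5 Top2a UMIs (at most 61), and 9 cells had no Top2a. Slc1a3, the glial glutamate transporter, had a median of 24 UMIs and a maximum of 87, and 3 cells lacked it. Fabp7, a fatty acid binding protein of radial glia and astrocytes, ranged from 1 to 502 UMIs around a median of 73. Of the 700 P7 cells that divided by Mki67 and Top2a, 550 had a UMI of Pdgfra or Sox10, a further 30 had over 1 Foxj1 UMI, and the Slc1a3 and Fabp7 criterion removed 1 more. That last criterion separated little at P7, since 420 of 481 neurons without Slc1a3 also reached it through Fabp7.

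Cells at the edges of the rule show what the thresholds did. Exactly 3 UMIs of Mki67 and Top2a were found in 14 members. Just outside, 91 cells with Mki67 had 2 or fewer, and in these Cenpf, a mitotic kinetochore gene, stood at 51.6 CPM (a gene's UMIs per 1000000 UMIs of the group) against 828 in the members. The 47 cells that failed by exactly 1 UMI of Pdgfra or Sox10 differed from the members in both directions. They were at 178 CPM for Egfr, 555 for Olig1 and 737 for Cenpf, where the members stood at 171, 532 and 828 CPM. They were at 312 CPM for Agt, 1186 for Slc1a3 and 11.47 for the precursor proteoglycan gene Cspg4, where the members stood at 511, 1913 and 27.8 CPM. Tesc was higher just outside the rule, at 235 CPM (204 to 270) against 103 (88.2 to 119). These 47 cells were also deeper, with a median of 18802 UMIs against 13315 in the members. Among neurons with 10 or more Snap25 and Syt1 UMIs and no Slc1a3, 224 of 705 also had a Pdgfra or Sox10 UMI, against a median of 18 such UMIs in dividing oligodendrocyte precursors. A limit of 0 UMIs thus also removes cells with as few of these UMIs as many neurons have, and 119 is the count under that limit.

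The name non-oligodendroglial holds in part. Defining genes of oligodendrocyte precursors were low, but Olig1 was found in 108 and Olig2 in 86 of the 119 cells. The cells were thus free of Pdgfra and Sox10 and not of oligodendroglial lineage factors. Sox2, a factor of neural progenitors and glia, was found in all 119 cells (median 9 UMIs, at most 28), and Sox9, a radial glial and astrocyte factor, in 114. All 11 radial glial genes had UMIs, at 7129 CPM in sum (7003 to 7258). The sum was 9217 CPM in the stricter group of resting glia described below and 2935 in the first group. The members thus lay under one resting group and over the other. Ptprz1, which encodes a receptor phosphatase also made by precursors, held 53.3% of the sum in members. Of the 11 genes 4 (Nes, Pax6, Tnc and Hopx) were found in fewer members than not, in 56, 43, 38 and 19 cells. Markers of blood, vessel and meningeal cells were near 0. The 5 microglial genes summed to 2.96 CPM with C1qb, Cx3cr1 and P2ry12 at 0, endothelial genes to 7.69 CPM with Cdh5 at 0, mural genes to 5.91 with Kcnj8 at 0, fibroblast genes to 7.09 with Col1a1, Col3a1, Dcn and Lum at 0, and erythroid genes to 8.28. None of these lists was carried, meaning 3 or more UMIs of it, by any of the 119 cells, which allows a share of up to 3.05%. Every member had a tdTomato UMI (1 to 113, median 18). No member barcode recurred at another age, although 72 P7 barcodes did, and 3 members were called doublets. The neuronal genes Snap25 and Syt1 were at 0 in 80 members and reached 4 UMIs in 5.

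The levels of cell cycle genes were near those of the other main dividing population of this age, which was chosen by the same limits on Mki67 and Top2a, so the likeness is in part set by the rule. The 18 genes of DNA replication summed to 2056 CPM in the members (1988 to 2126) and 2156 in dividing oligodendrocyte precursors (479 cells that pass the same division rule with 2 or more Pdgfra and Sox10 UMIs and at most 1 of Foxj1). The 19 mitotic genes summed to 4958 CPM (4853 to 5066) against 5356. A gene was called different when its CPM, with 5 added to both groups, differed by a factor of 2 or more. Against the precursors 635 of 11636 genes tested were called higher in the members (5.46%) and 990 lower (8.51%), and 0 of the 18 replication genes and 0 of the 19 mitotic genes were called either way. Their median ratios were 0.931 and 0.916, and the median over all genes tested was 0.943. Single cells differed far more than groups. Replication genes ranged from 0 to 8101 CPM around a median of 1531, and mitotic genes from 243 to 22701 around 4347. After every cell was thinned to 2000 UMIs, 67 members carried both lists with 2 or more UMIs of each, 16 carried replication genes alone, 33 mitotic genes alone and 3 neither. Ube2c, which drives exit from mitosis, was found in 95 cells (median 4 UMIs, highest 67) and the replication helicase gene Mcm6 in 60 (median 1, highest 15). Thinned, 69.7% of members carried the replication list, against 7.91% of the stricter resting glia described below and 5.82% of neurons. For the mitotic list the shares were 84.0, 1.48 and 0.208%. Those 2 groups were chosen with no Mki67 or Top2a, and no cell was assigned to a phase of the cycle.

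The D cyclins, which drive entry into the cycle, differed from the precursors in opposite directions. Ccnd2 was at 322 CPM in members and 110 in precursors, while Ccnd1 was at 140 and 286. Neither differed from the stricter resting glia described below in this way, where Ccnd2 was at 255 CPM and Ccnd1 at 148. Against the first resting group Ccnd1, Ccnd2, Ccnd3 and Cdkn2c were called higher of 8 list genes tested, where 8.98% of all genes were. Among the cyclin-dependent kinase inhibitors, Cdkn2c was at 144 CPM in members, 138 in precursors and 4.53 in resting glia, and Cdkn1a at 42.0, 20.7 and 9.83. Of the resting groups, Cdkn1a was called higher only against the stricter one.

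Resting glia were defined 2 ways. The first group was the same rule with no Mki67 or Top2a (2830 cells), but 1283 of these had 4 or more Snap25 and Syt1 UMIs, and its genes lowest in members were Ghrh, Scg2, Npy, Avp and Stmn2, which are neuronal. Against it 1072 of 11932 genes were called higher in the members (8.98%) and 1632 lower (13.7%). A stricter group of 948 cells, added after seeing this, required 5 or more Slc1a3 UMIs and 0 of Snap25 and Syt1, and values called resting glia elsewhere refer to it unless the first group is named. Its rule asks for more of an astroglial gene than the rule of the members does and fixes 2 neuronal genes at 0, so levels of astrocyte and neuronal genes in it are in part set by that choice. It had a median of 9087.5 UMIs. Against it 772 of 11504 genes were higher (6.71%) and 471 lower (4.09%). Of the 1072 genes higher and 1632 lower against the first group, 557 and 114 were also called against the stricter one. All 18 replication and all 19 mitotic genes were higher under both definitions. The rule chose cells for division, so these counts describe the choice.

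Astrocyte genes were carried by most members. The 12 genes summed to 5198 CPM (5090 to 5308) in members, 11329 in resting glia, 3382 in the first resting group and 1347 in dividing precursors. The members thus lay under one resting group and over the other, and over the precursors. Agt, the angiotensinogen gene that hypothalamic astrocytes express, was found in 92 members with a median of 3 and a maximum of 34 UMIs. Its level was 511 CPM (477 to 546), against 1310 (1287 to 1334) in resting glia and 84.4 (77.2 to 92.1) in precursors. Slc6a11, a GABA transporter, was found in 108 members (median 11 UMIs, at most 50), at 969 CPM against 1968 and 158. The gap junction gene Gja1 was found in 103 (399 CPM against 873 and 62.7) and the water channel gene Aqp4 in 77 (208 against 684 and 43.1).

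Counted over the list, 12 of the 12 astrocyte genes were higher than in the precursors, with a median ratio of 4.52 against 0.943 for all genes tested. The rule left out cells with Pdgfra or Sox10, by which the precursors were chosen, so this count is not independent of it. Against resting glia 7 of 12 were lower (among them Aqp4, Gja1, Agt, Aldoc, Slc6a11 and Gfap), with a median of 0.496 against 0.989 for all genes tested. Over all genes tested, 5.46% were higher than in precursors and 4.09% lower than in resting glia. Against the first resting group the count was 2 higher (Aldh1l1 and Fgfr3) and 1 lower (Gfap), with a median of 1.70 against 1.01 for all genes tested. There 8.98% of all genes tested were higher and 13.7% lower. Gfap, the intermediate filament of mature and ventricular astroglia, was the lowest of the named genes against resting glia, at 46.1 CPM (36.5 to 57.6) and 407. It was found in 16 members, and 1 cell held 64.1% of its UMIs. Aldoc, a brain aldolase, was at 249 and 988 CPM, Entpd2, an ectonucleotidase, at 56.2 and 260, S100a6 at 109 and 454, and Hspa2 at 24.2 and 145.

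**Figure D1:**
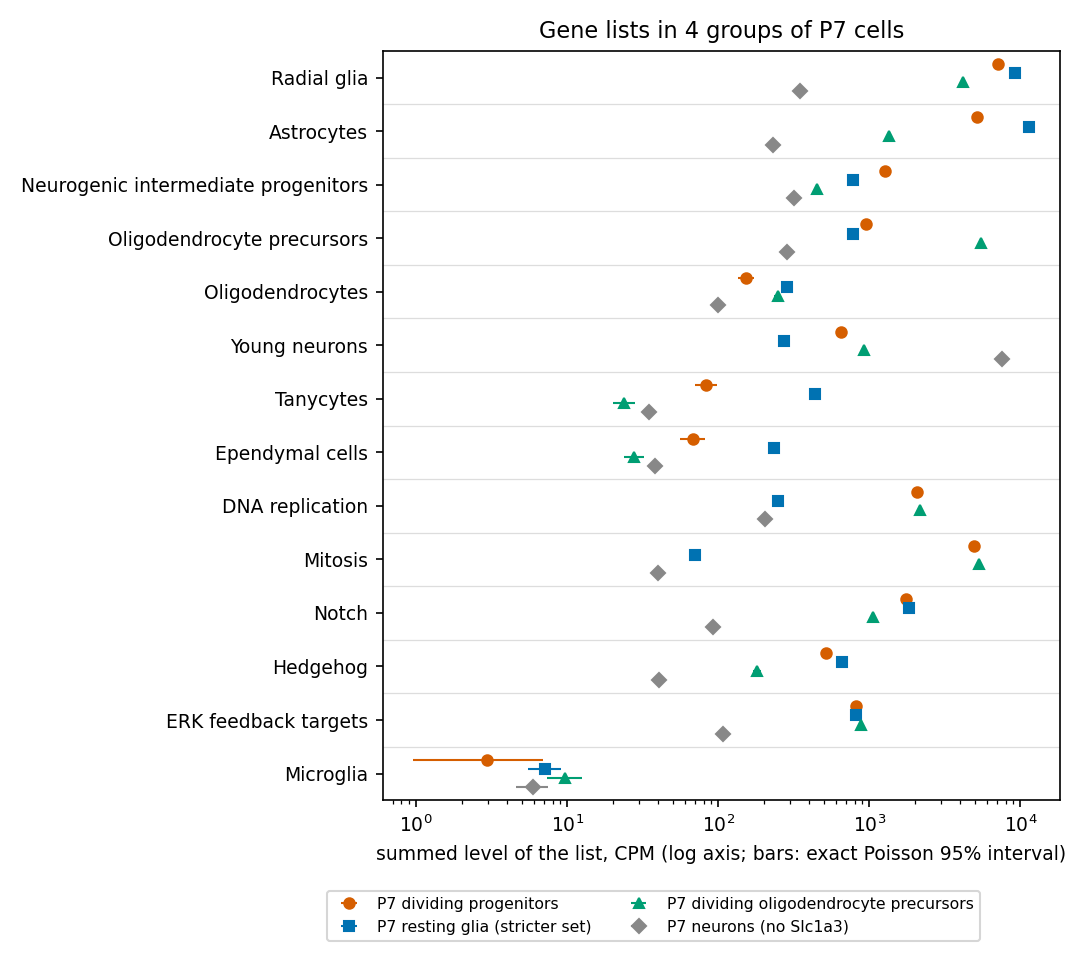
Summed level of 14 gene lists, in CPM on a log axis, in the P7 dividing progenitors (circles), stricter resting glia (squares), dividing oligodendrocyte precursors (triangles) and neurons without Slc1a3 (diamonds), with exact Poisson 95% intervals. The dividing progenitors lie beside the dividing precursors for replication and mitosis, between precursors and resting glia for the astrocyte list (5198 CPM), and far under the precursors for their own list (948 against 5449 CPM).

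Egfr, the receptor for EGF and related ligands, was found in 84 of the 119 members, with a median of 2 and a maximum of 11 UMIs. It was at 171 CPM (152 to 192) in members and 102 (95.8 to 109) in resting glia, which is under the factor of 2, and at 20.7 (17.2 to 24.7) in dividing precursors. Against the first resting group, which held neurons, Egfr was called higher. Thinned to 2000 UMIs, 29.4% of members (21.4 to 38.5%) had a UMI, 17.6% of resting glia, 2.92% of precursors and 0.416% of the neurons. Unthinned shares were 70.6%, 48.8%, 15.4% and 3.53%, at median depths of 13315, 9087.5, 11109 and 22340 UMIs. Among the 57 members with at most 5 Olig1 and Olig2 UMIs the thinned share was 17.5%. Resting glia were not limited in this way, so this share cannot be set directly against theirs. The members and resting glia were therefore both above the precursors and the neurons at equal depth.

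Other EGF family genes differed between the 2 dividing populations in both directions. Of its 11 genes 6 were testable against the precursors, where 5.46% of all genes tested were higher in members and 8.51% lower. Egfr and its partner Erbb2 (16 against 2.84 CPM) were higher in members, while Tgfa (8.87 against 98.1), Nrg1 (1.18 against 19.4) and Erbb4 (16 against 48) were lower. Tgfa and Nrg1 encode ligands, and the ligand gene Hbegf was at 48.5 CPM in members, 40.5 in precursors and 115 in resting glia, where its ratio put it among the genes lower in members. Of 6 family genes tested against the first resting group, Egfr was called higher and Nrg1 lower. Over all genes tested 8.98% were higher and 13.7% lower. Of the 10 ERK feedback targets, genes that this pathway switches on and that often restrain it, 2 were higher than in precursors (Dusp6 and Lrig1) and 2 lower (Spry1 and Spry4). Lrig1, an inhibitor of EGF receptors, stood at 163 against 17.9 CPM. Against resting glia 0 of the 10 were called in either direction, whereas against the first resting group 7 were higher (Spry1, Spry2, Dusp6, Etv1, Etv4, Etv5 and Lrig1) and 0 lower.

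The 9 genes of neurogenic intermediate progenitors summed to 1271 CPM in members (1218 to 1326), 783 in resting glia and 453 in precursors. Of 8 genes tested, 4 were higher than in precursors (Hes6, Insm1, Gadd45g and Btg2), 1 was lower (Dll3), and the median ratio was 2.27. Against resting glia 6 of 8 were higher, and against the first resting group 5 of 8. Over all genes tested, 5.46% were higher against precursors, 6.71% against resting glia and 8.98% against the first resting group. Btg2 and Gadd45g, which also answer to stress, were at 490 and 160 CPM in members and 453 and 167 in resting glia. Hes6, an antagonist of Hes repressors, was found in 59 members (203 CPM, highest 23 UMIs), and Insm1, a zinc finger factor of committed neuronal and endocrine progenitors, in 25 (58.5 CPM, highest 11 UMIs). Thinned, the share with Insm1 was 5.88% (2.40 to 11.7%) in members and 7.69% in neurons, so as a share of cells Insm1 was not above the neurons. Neurog2 was at 0.

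Tesc, which encodes the calcium-binding protein tescalcin, was found in 29 members. Of these 11 had exactly 1 UMI and 15 had 3 or more, and the highest cell had 30, or 17.2% of all Tesc UMIs. The level was 103 CPM (88.2 to 119) in members, 6.85 in resting glia and 4.51 in precursors. Neurons also held Tesc, at 36.8 CPM. At equal depth 10.9% of members (5.95 to 18.0%) and 5.41% of neurons (3.56 to 7.82%) had a UMI, and unthinned 24.4% and 39.7%, so the intervals of the thinned shares overlapped. Tesc, one of the genes given as markers of these cells, was thus at 0 in 90 of the 119. Of the 15 cells with 3 or more Tesc UMIs, 9 also had 3 or more of Egfr and 5 had 3 or more of Insm1.

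The members did not carry astrocyte and intermediate-progenitor genes evenly but ran from one to the other. Per cell, the astrocyte list ranged from 86.3 to 18480 CPM around a median of 5246, and the intermediate-progenitor list from 0 to 7875 around 320. In the highest cell 103 of the 106 UMIs of the intermediate list were of Btg2, and that cell had no Insm1 or Tesc. Without Btg2 and Gadd45g, which held 51.2% of the list's UMIs, the list ranged from 0 to 5231 CPM around 106. Over the 119 cells the Spearman correlation of the astrocyte and intermediate levels was -0.769, and -0.753 without Btg2 and Gadd45g. This is a description over cells of 1 sample that share a library and range from 4102 to 34943 UMIs, in which a rise of one share of UMIs lowers the others. Computed the same way, the astrocyte list had a correlation of -0.424 with the young neuron list and -0.138 with the oligodendrocyte precursor list. Thinned to 2000 UMIs, 70 members carried the astrocyte list alone, 14 the intermediate list alone, 31 both and 4 neither. These counts include Btg2 and Gadd45g. The intermediate list was carried in this way by 37.8% of members (29.1 to 47.2%) and 28.2% of resting glia (25.3 to 31.1%), whose intervals overlap. Shares were 21.3% in precursors, 14.6% in neurons and 36.2% in P0 cells of the same rule. For the astrocyte list they were 84.9% in members, 98.6% in resting glia and 52.0% in precursors. Counted by single genes, 65 members had 3 or more UMIs of Agt and fewer of Tesc, 13 the reverse, 2 had 3 or more of both and 39 of neither.

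**Figure D2:**
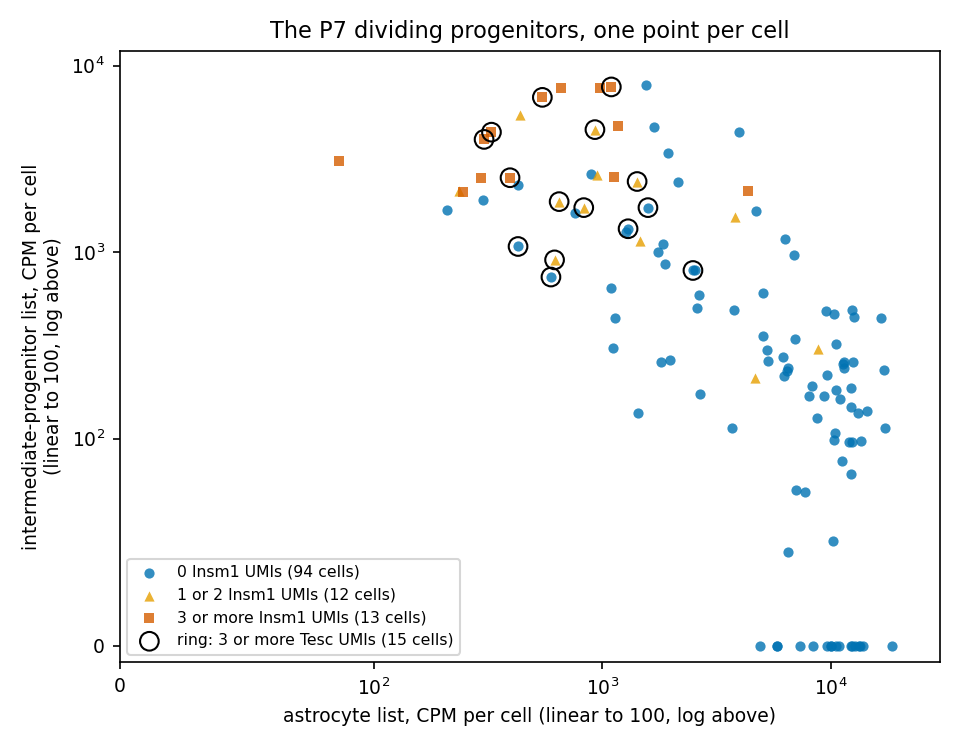
Each of the 119 P7 dividing progenitors by its astrocyte list (x axis) and its intermediate-progenitor list (y axis, which includes Insm1), in CPM (both axes linear up to 100 and logarithmic above), coloured by Insm1 UMIs, with a ring around the 15 cells with 3 or more Tesc UMIs. The ringed cells and the 13 cells with 3 or more Insm1 UMIs lie mostly at the upper left, and the lower right holds mostly cells without Insm1.

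Divided by Tesc, the 29 cells with a UMI and the 90 without differed in most lists. These are the same cells in which the list levels were seen, so the split is a description. The astrocyte list was at 1877 CPM with Tesc and 6593 without, a ratio of 0.285 (0.266 to 0.305), and Agt, Aqp4, Gja1, Aldoc and Slc6a11 each had ratios between 0.222 and 0.335. The radial glia list was at 4648 and 8171 CPM (ratio 0.569), but without Ptprz1 it was at 3137 and 3406 (ratio 0.921). Within it Hes1, a Notch target, was at 232 CPM with Tesc and 109 without, and Vim, an intermediate filament gene, at 996 and 795 (ratio 1.25, 1.12 to 1.40), while Sox2 had a ratio of 0.742 (0.645 to 0.851) and Hes5, another Notch target, one of 0.746 (0.653 to 0.850). The intermediate list was at 1711 and 1086 CPM, a ratio of 1.58 (1.44 to 1.72), and of 2.26 without Btg2 and Gadd45g. The oligodendrocyte precursor list had a like ratio, 1.59 (1.44 to 1.76), with Olig1 at 764 CPM with Tesc and 435 without. Within the intermediate list Insm1 was at 132 with Tesc and 27.7 without, Hes6 at 388 and 125 and the Notch ligand gene Dll3 at 39.99 and 14.3, whereas Dll1, another ligand gene, was at 28.0 and 29.4 CPM. Not all of the intermediate list thus followed Tesc.

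Cycle genes differed in both directions. With Tesc, Ccnd1 was at 228 CPM against 103, Ccnd2 at 564 against 219.9, Cdk6 at 258 against 75.5 and Cdk4 at 932 against 447. The replication list was at 2955 against 1679 (ratio 1.76, 1.65 to 1.88). A member with 1 Tesc UMI held 72 of the 282 Ccnd2 UMIs with Tesc and the highest replication level, 8101 CPM. Ratios without that member were not computed. The mitosis list was at 3581 against 5537 CPM (ratio 0.647, 0.613 to 0.682). Gsx1, a homeobox factor, was at 71.98 CPM with Tesc and 11.8 without. It was found in 13 members and stood at 85.8 CPM in dividing precursors. Olig2 was at 358 and 172 CPM. Cdk4, Cdk6 and Gsx1 are on no list and were picked after their values were seen.

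Other quantities moved with this split. Median depth was 16379 UMIs with Tesc and 11630 without. Within cells of 8000 to 30000 UMIs the ratios were 0.277 for the astrocyte list and 1.59 for the intermediate list. Genes of the response to dissociation (Fos, Jun, Egr1 and others) stood at 4345 CPM with Tesc and 3088 without, and their part in the other differences was not tested. The reporter tdTomato was at 2427 and 1498 CPM.

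**Figure D3:**
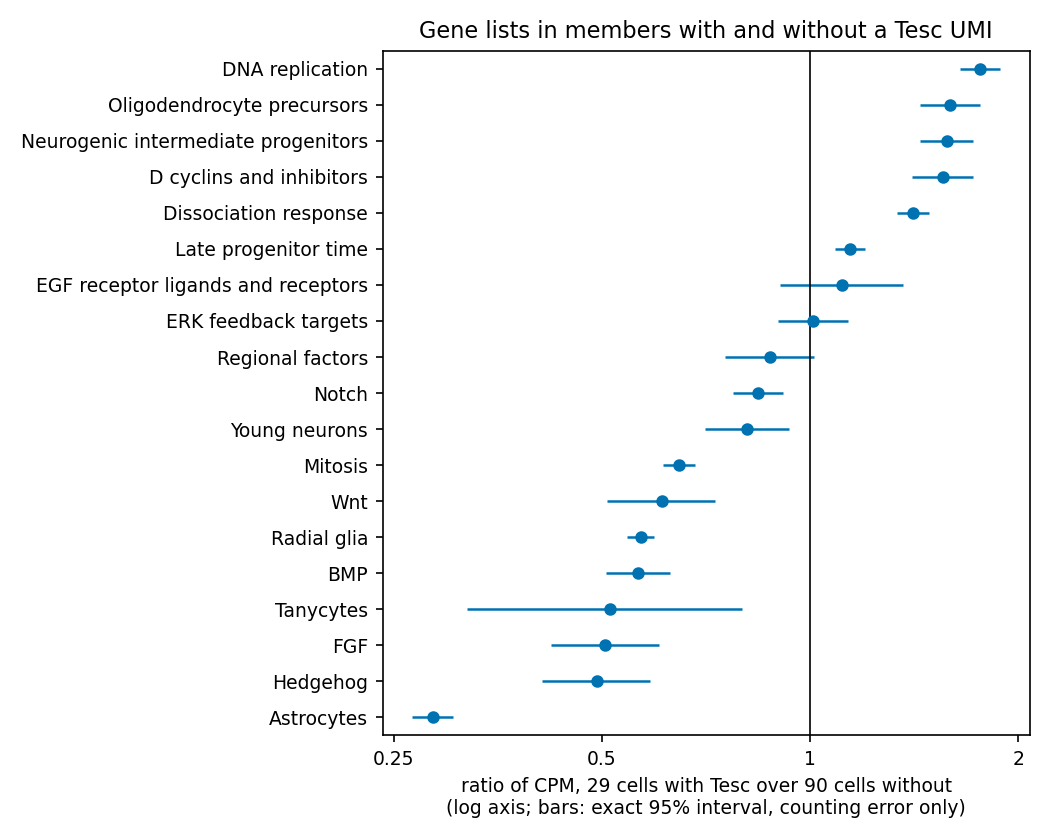
Ratio of the summed level of 19 lists between the 29 members with a Tesc UMI and the 90 without, on a log axis, with exact 95% intervals for counting error. The replication list lies farthest right (1.76) and the astrocyte list farthest left (0.285), with the dissociation list at 1.41.

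Divided by Egfr, 84 cells with and 35 without, the astrocyte list had a ratio of 1.12 (1.06 to 1.18) and replication genes one of 1.002 (0.925 to 1.09). The intermediate list had a ratio of 0.725 (0.659 to 0.797), young neurons 0.382 (0.338 to 0.431), tanycytes 0.323 (0.229 to 0.457) and oligodendrocyte precursors 1.67 (1.45 to 1.92). Single cells weighed on the tanycyte and young neuron ratios. For tanycytes 1 member without Egfr was at 2385 CPM, where the median member was at 0. For young neurons 1 member without Egfr was at 8114 CPM and 1 with Egfr at 7441. List ratios without these cells were not computed. Within cells of 8000 to 30000 UMIs the astrocyte and intermediate ratios were 1.45 and 0.616. Olig1 was higher with Egfr (602 against 286 CPM). Rax (9.11 against 64.1), Nkx2-1 (57.0 against 144) and Dlx1 (5.32 against 203) were lower, but 1 cell held 67.5% of the Dlx1 UMIs, and without the cell with 15 Rax UMIs, which had no Egfr, Rax was at 9.11 against 25.1 CPM. Depth differed here too, with medians of 14962 and 8604 UMIs. Of the 29 cells with Tesc 24 had Egfr, and of the 90 without Tesc 60 did.

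Genes of the oligodendrocyte lineage divided into shared and low ones. Olig1, a lineage factor also made by some astroglia, had a median of 5 and a maximum of 43 UMIs, at 532 CPM (498 to 568) in members, 485 (471 to 500) in resting glia and 1959 (1924 to 1995) in dividing precursors. Olig2 was at 227, 163 and 696 CPM. The members thus stood near these resting glia for both factors. Of 8 list genes tested against the first resting group, Olig1, Olig2 and Cspg4 were called higher and Pcdh15 lower. Over all genes tested 8.98% were higher and 13.7% lower. The list summed to 948 CPM in members and 440 in that group. At equal depth Olig1 was found in 53.8% of members, 48.9% of resting glia, 95.2% of precursors and 4.78% of neurons. Other genes of oligodendrocyte precursors were low. Cspg4 was at 27.8 CPM against 444 in precursors, C1ql1 at 17.7 against 514 and Lhfpl3 at 20.1 against 541. Pcdh15 was at 4.14 against 317, and Gpr17, a receptor of cells about to differentiate, at 4.73 against 511. Of the 8 list genes tested against precursors, 8 were lower and 0 higher, with a median ratio of 0.0595. Over all genes tested 8.51% were lower than in precursors. Pdgfra and Sox10, which chose the cells, are not in the list but mark the same cells as these genes, so the count of 8 is not independent of the rule. Bmp4 and Enpp6, of differentiating cells, were at 0. Only 3 members had neither an Olig1 nor an Olig2 UMI.

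Beyond the lists, the genes highest over the precursors were Tead2, a DNA-binding partner of the Hippo pathway, at 115 CPM (99.1 to 132) against 5.02 (3.38 to 7.16), Tesc, Bcl2l12 (62.1 against 2.84), Pla2g7, a secreted phospholipase (563 against 64.4), Mgst1, a glutathione transferase (199 against 20.1), and Itgb5, an integrin (153 against 14.7). They were followed by the cystine transporter gene Slc7a11 (167 against 16.6), the membrane protease gene Mmp14 (198 against 21.4), Grk3 (186 against 20.4), Mlc1 of astrocyte end-feet (455 against 56.8), Lrig1, Sox1 (180 against 20.2), Btg2 and Selenop (383 against 48.8). Tead2 was found in 73 members and at 58.4 CPM in resting glia, and Sox1 at 140 CPM there, so these were shared with non-dividing glia. Genes of the response to dissociation summed to 3460 CPM in members, 3448 in resting glia and 1878 in precursors, and their part in differences such as Btg2 (490 against 63.2) was not tested. Sst, a neuropeptide gene, also met the naming rule, but 83.1% of its UMIs lay in 1 cell, and without called doublets its ratio fell to 1.54. The lowest were Gpr17, Matn4 (1.18 against 260 CPM), Pcdh15, Ptpre (2.96 against 237), Cntn1 (26.6 against 900.1), Mfsd2a (10.1 against 367), Gria3 (1.18 against 144), C1ql1, Plppr1 (5.91 against 242) and Lims2, which was at 0 (up to 2.18 CPM) against 120 CPM.

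**Figure D4:**
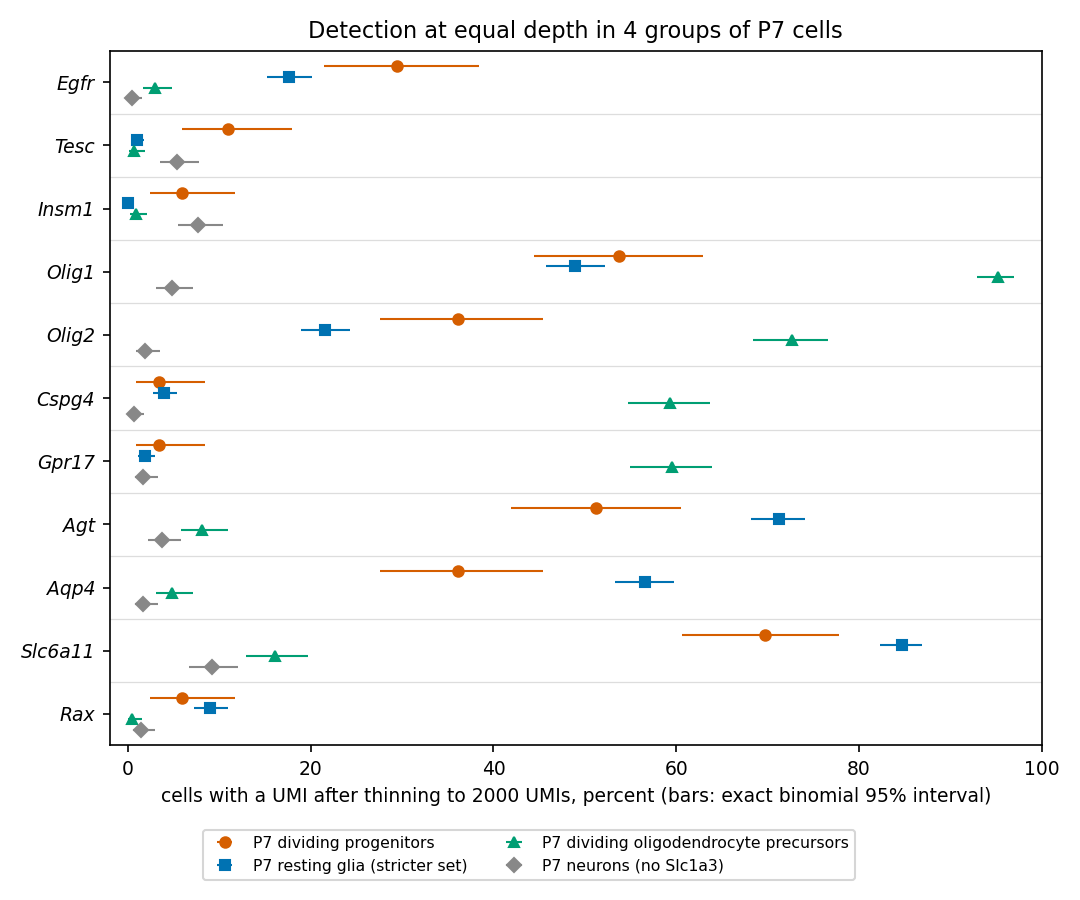
Share of cells with a UMI of 11 genes after every cell was thinned to 2000 UMIs, with exact binomial 95% intervals, in the same 4 groups of P7 cells. Members and resting glia lie close for Olig1 (53.8 and 48.9%), both far under the precursors (95.2%), and the members lie between resting glia and precursors for Agt, Aqp4 and Slc6a11.

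Of 15 Notch genes 14 were tested against the precursors, with 6 higher (Dll4, Jag1, Notch2, Notch3, Lfng and Hey2), 1 lower (Dll3) and a median ratio of 1.72. Over all genes tested 5.46% were higher and 8.51% lower than in the precursors. Dll4 rested on 25 UMIs in 14 members. Lfng, which modifies Notch receptors, was at 144 CPM against 19.6, and 182 in resting glia. Hes5, the effector of Notch in progenitors, was found in 107 members with a median of 7 and at most 56 UMIs, at 744 CPM against 402 in precursors and 823 in resting glia. Against resting glia the 4 genes called higher of 14 tested were Dll1 (29.0 against 7.29 CPM), Dll3 (21.9 against 4.64), Dll4 (14.8 against 2.43) and Mfng, all ligands or modifiers. Over all genes tested 6.71% were higher and 4.09% lower. Against the first resting group 10 of 15 Notch genes were higher and 1 lower, where 8.98% of all genes tested were higher and 13.7% lower.

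Of 8 testable Hedgehog genes 5 were higher than in the precursors (Ptch1, Smo, Gli1, Gli2 and Gli3) and 0 lower, with a median ratio of 2.40. Gli1 and Gli2 rested on 15 and 16 UMIs, each in 13 members, and reached the mean of 5 CPM through the members. Ptch1, both receptor and target of the pathway, was found in 100 members (median 3 UMIs, at most 18), at 276 CPM against 68.5, and 403 in resting glia. Against resting glia 0 of 8 were called either way, whereas against the first resting group 6 were higher (Ptch1, Smo, Gli2, Gli3, Hhip and Gas1) and 0 lower. For this and the next lists, the shares over all genes tested were 5.46% higher and 8.51% lower against precursors. They were 6.71 and 4.09% against resting glia, and 8.98 and 13.7% against the first resting group. Of the Wnt list 4 of 10 were higher than in the precursors (Tcf7l1, Lgr4, Dkk3 and Wnt5a) and 1 lower (Lgr5), while against resting glia 0 of 11 were higher and 3 lower (Lgr6, Sfrp5 and Dkk3). In the FGF list 1 of 4 was higher than in the precursors, Fgfr3 (306 against 62.5 CPM). Against resting glia 0 of 7 FGF genes were higher and 3 lower (Fgf1, Fgf18 and Fgfbp3). Lgr5, Lgr6 and Fgf18 had 1, 7 and 3 UMIs in members and reached the mean of 5 CPM through the other group. Their calls as lower therefore lean on that filter. In the BMP list 4 of 10 were higher than in the precursors (Bmpr1b, Id1, Id3 and Id4) and 2 lower (Bmp7 and Nog), and against resting glia 2 of 10 were higher (Id1 and Chrdl1) and 3 lower (Id2, Id4 and Nog). Id1, an inhibitor of proneural factors, was at 268 CPM in members, 53.7 in precursors and 130 in resting glia, while Id4 was at 131, 29.6 and 321. Against the first resting group the Wnt, FGF and BMP lists had 4 of 12, 1 of 6 and 4 of 10 genes higher and 0, 1 and 1 lower.

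Few members carried genes of tanycytes or ependymal cells, the other cells of the ventricular wall. The 9 tanycyte genes summed to 83.4 CPM (70.2 to 98.3), against 437 in resting glia, whose rule does not leave out tanycytes, and 23.7 in dividing precursors. Rax was at 21.3 CPM in members, 84 in resting glia and 5.85 in precursors, Col23a1 at 30.7, 129.8 and 4.35, and Crym at 18.9, 144.5 and 2.34. Thinned, 3 members carried the list, or 2.52% (0.523 to 7.19%). Rax, which drives the lineage label, was found in 17 members, and 1 cell held 15 of its 36 UMIs. Ependymal genes summed to 68.0 CPM and were carried by 1 member. Of the genes of multiciliation, which uses parts of the cycle machinery, Foxn4, Cdc20b and Gmnc were at 0, and Plk4 (73.9 CPM) and Myb (17.7) were at 82.1 and 15.9 in precursors. Because the rule limited Foxj1, this says nothing about dividing ciliated cells in general.

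Regional factors were found in many members. Six3 was found in 80 (at most 20 UMIs, 163 CPM), Lhx2 in 54 (79.2 CPM), Nkx2-4 in 49 (105 CPM), Nkx2-1 in 46 (76.3 CPM) and Foxd1 in 33 (35.5 CPM), all homeobox or forkhead factors of the hypothalamic primordium. Of 12 regional genes tested against the precursors 4 were higher, among them Rax, Nkx2-1 (17.7 CPM in precursors) and Nkx2-4 (18.4), and 0 lower. Over all genes tested 5.46% were higher and 8.51% lower. Young neuron genes summed to 647 CPM in members, 271 in resting glia and 919 in precursors. In members 3 cells held 527 of the 1094 UMIs, the sum without them was 353 CPM, and the median member was at 240. Against resting glia 8 of 9 tested were higher, with a median ratio of 2.53, but these include Snap25 and Syt1, which the rule of that group fixed at 0. Against the first resting group, which held neurons, 0 of 10 were higher and 8 lower, with a median of 0.230. Over all genes tested, 6.71% were higher than in resting glia and 13.7% lower than in the first resting group. Against precursors 3 of 9 were lower (Dcx, Elavl3 and Snap25) and 2 higher. In neurons, chosen by Snap25 and Syt1 of this list, the sum was 7603 CPM. Dlx1 and Dlx2 were called higher than in the precursors, but each was found in 7 members, and 1 cell held 67.5 and 83.7% of their UMIs.

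The same rule was applied at the other ages. It took 11.3% of E11 cells (10.5 to 12.2%, 579 cells), 1.95% at E14 (1.75 to 2.17%, 335 cells), 3.93% at P0 (3.59 to 4.29%, 475 cells) and 1.33% at P7. Among all cells that divided by Mki67 and Top2a, it took 46.4% at E11, 75.5% at E14, 74.1% at P0 and 17% (14.3 to 19.99%) at P7. The criterion of Slc1a3 and Fabp7 removes dividing cells with little of either at any age. Depth differed between ages. With cells thinned to 5000 UMIs before the rule, and those of fewer UMIs left out, the shares were 2.81, 1.27, 3.34 and 1.18% of the cells kept. The run numbers in the barcodes split E11, E14 and P0 in 2 runs whose meaning is not given in the sources used here. By run the shares were 6.76 and 12.1% at E11, 7.02 and 1.85% at E14, and 2.41 and 4.32% at P0, so the order of E14 and P0 differed between runs 1 and runs 2. Of dividing cells at E11 the share was 20.2% (15.3 to 25.8%) in run 1 and 52.7% (49.6 to 55.9%) in run 2, and the interval of run 1 overlapped that of P7. The E11 cells of run 1 also held fibroblast genes at 64.2 CPM, against 8.71 in run 2, and erythroid genes were at 335 CPM there and at 285 in P0 run 1, against 8.28 at P7. Their part in differences between ages was not tested.

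Over these ages the astrocyte and early progenitor lists shifted in opposite directions. Mitotic genes, whose level is tied to the limits on Mki67 and Top2a that chose the cells at every age, were at 3990 and 4277 CPM in E11 runs 1 and 2, 3643 and 5530.5 at E14, 4922 and 5806 at P0 and 4958 at P7. The astrocyte list was at 122 and 121 CPM at E11, 155 and 202 at E14, 1846 and 2081 at P0 and 5198 at P7. Early progenitor genes, which mark young embryonic progenitors, were at 1234 and 1141 CPM at E11, 494 and 310 at E14, 94.9 and 152 at P0 and 51.4 at P7. Igf2bp1, an RNA-binding protein of that set, was at 318 CPM in E11 run 2, 67.8 in E14 run 2, 5.08 and 26.9 at P0 and 0 at P7. Nfix, a factor of late progenitors, was at 11.4 and 193 in those embryonic runs, 370 and 627 at P0 and 965 at P7. The intermediate-progenitor list had no such course, at 888 and 958, 1619 and 996, 651 and 798, and 1271 CPM. Egfr was at 0 CPM in E11 run 2 and 2.04 in E14 run 2, and at P0 at 88.1 and 186, so its P7 level of 171 lay between the P0 runs.

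**Figure D5:**
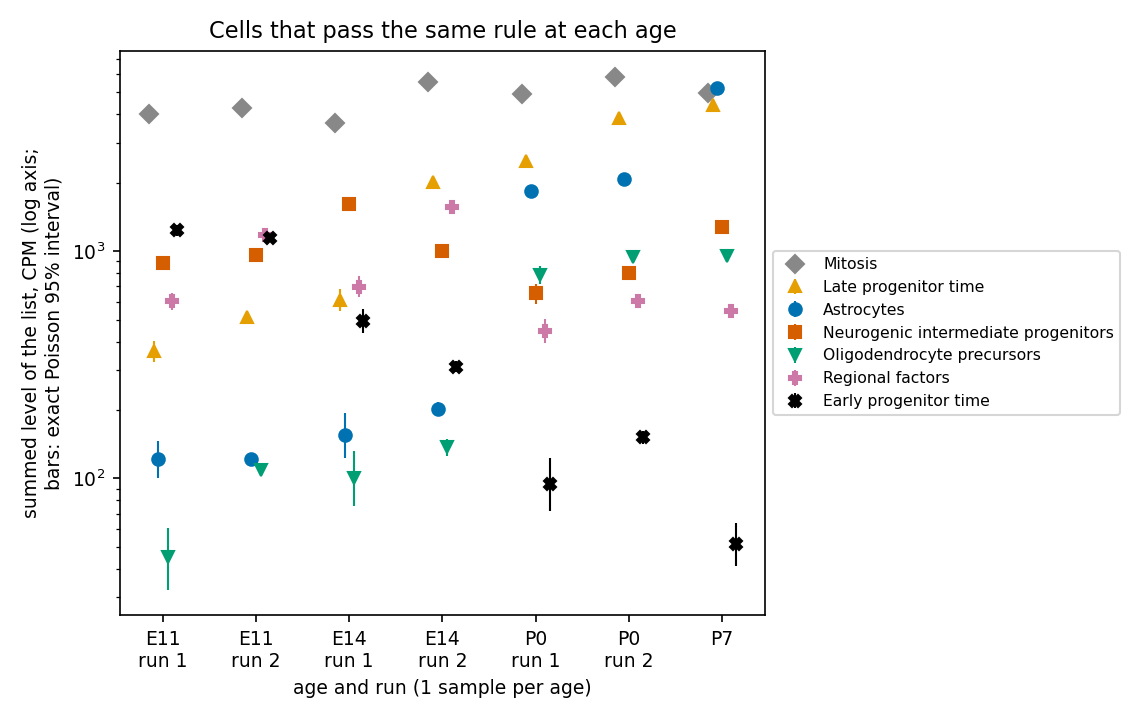
Summed level of 7 gene lists, in CPM on a log axis, in the cells that pass the same rule at each age and run, with exact Poisson 95% intervals. Astrocyte genes lie between 121 and 202 CPM before birth, at 1846 and 2081 at P0 and at 5198 at P7, while early progenitor genes run from 1234 and 1141 to 51.4 CPM and mitotic genes stay between 3643 and 5806.

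Against the P0 cells of the same rule, 358 of 11358 genes were called higher at P7 (3.15%) and 145 lower (1.28%). Of the 12 astrocyte genes 7 were higher (among them Gja1, Agt, S1pr1, Slc1a2, Slc6a11 and Htra1), with a median ratio of 2.22 against 1.02 for all genes tested. The named genes highest at P7 were chosen by their ratio. Gpr37l1, an orphan receptor of glia, was at 163 CPM (144 to 183) at P7 and 0 and 2.66 in P0 runs 1 and 2. Agt was at 511 CPM against 62.7 and 23.7, S100b at 105 against 13.6 and 5.94, the amino acid transporter gene Slc7a10 at 182 against 32.2 and 16.6, Clu at 615 against 84.8 and 70.3, and Sparc, a matrix protein gene, at 1016 against 203 and 189. Cldn10, Abhd3, Entpd2, Hsd11b1, Itih3, Cxcl14, Fxyd1 and Ntsr2 were also named, with ratios of 5.36 to 7.19, and each was higher than in either P0 run.

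The genes lower at P7 followed the P0 runs less evenly. Hmga2, Igf2bp1 and Igf2bp3 of the 4 early genes tested were lower than at P0. Of these, Hmga2 and Igf2bp1 had 8 and 0 UMIs at P7 and reached the mean of 5 CPM through P0, so their calls lean on that filter. Dlk1, a Notch-related surface protein, was at 16.6 CPM against 55.9 and 142. Xist and Tsix were at 0 and 0.591 CPM at P7. Xist was found in 143 of the 416 P0 cells of run 2 and in 0 of the 59 of run 1, and this RNA is made from the inactive X chromosome of female cells. Of all 8917 P7 cells 15 had an Xist UMI. Against P0 run 1 and against P0 cells without Xist, Tsix was not lower at P7, as given in the closing section. The parts of sex and age in the levels of Xist and Tsix were not tested. Of the 5 histone genes among the 10 lowest, 1, Hist1h1b (62.1 CPM at P7, 6.78 and 301 at P0), was higher than in run 1 by a factor over 2, and the other 4 had ratios of 0.907 to 1.98 against run 1, under the factor of 2 that calls a gene. Against run 1 alone, which held 59 cells with a median of 8781 UMIs, 1413 genes were higher and 416 lower, of which 225 and 40 were among the 358 and 145. The dissociation list was at 902 CPM in P0 run 1, 4276 in run 2 and 3460 at P7, and its part in these differences was not tested. In the intermediate-progenitor list 3 of 8 were higher at P7 (Dll3, Insm1 and Gadd45g) and 0 lower, with a median of 1.79, and in the radial glia list 0 of 11 were higher and 2 lower (Nes and Tnc). Replication, mitosis, Hedgehog and oligodendrocyte precursor lists had 2 of 18, 0 of 19, 0 of 8 and 0 of 7 genes called higher and 0 lower. Over all genes tested against P0, 3.15% were called higher and 1.28% lower.

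Genes most like the rule in where they were detected were searched among all P7 cells. Among genes found in at least 20% of members, the 10 with the highest share of members among their positive P7 cells were Tuba1c (16.7%), Depdc1a, Psrc1, Ankle1, Esco2, Kif14, Neil3, Haspin, Hmmr and Slc2a4 (13.9%), where members were 1.33% of P7 cells. All but Slc2a4 are known from dividing cells, and dividing precursors had these 9 too, at 15.03 to 61.6% of cells. Slc2a4, the insulin-responsive glucose transporter gene, differed in this. It was found in 34.5% of members and 2.09% of dividing precursors, at 36.7, 2.01 and 11.4 CPM in members, precursors and resting glia.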

How the data were processed

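The deposited table holds UMI counts per gene and cell for all 4 samples, and the authors' values were whole, never negative and not normalized. Cell Ranger 3.0.2, Seurat and the mm10 build are named in the submitters' processing notes, with no role given. Live tdTomato-positive cells were captured with 10x Genomics 3-prime chemistry, per the labels' protocols. Cells were assigned to age and run by the start of their names. Total depth was 80085701 UMIs for the E11 sample, 163088747 for E14, 125846493 for P0 and 123098471 for P7.

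Counts were summed over the cells of a group and divided by its UMIs (CPM), with exact Poisson 95% intervals, and shares of cells have exact Clopper-Pearson intervals. Ratios between groups had 5 CPM added to both. Genes were tested at a mean of 5 CPM or more, without the 7 genes of the rule, and called at a ratio of 2 or more. A gene near 0 in 1 group that reached this mean through the other group had to be called. Ratios without added CPM, given for members with and without a gene, have exact conditional intervals. For shares each cell was thinned once to 2000 UMIs. The calls were tested on simulated counts with known changes and counting error alone. Spread between cells was not simulated, so this does not show how the calls behave where 1 cell holds most UMIs of a gene. Named genes beyond the lists were the 15 highest and 10 lowest ratios with non-overlapping intervals and a UMI in 20% of cells of the higher group, without mitochondrial, ribosomal and unnamed genes. Doublets were called with Scrublet in Scanpy 1.11.5 (254 of 8917 P7 cells, 2.85%) and kept, and the results were repeated without them. Python 3.11.15, numpy 2.4.6, scipy 1.17.1 and matplotlib 3.10.9 were used. The members, lists and alternatives were chosen with earlier results of these data known. The effect of alternative thresholds, depth windows, added CPM, minimum CPM, P0 runs and comparison groups is given in the closing section. Results for a few genes of the lists are not reported here, although sums and counts over the lists include them.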

Additional observations from a re-analysis of the deposited data

How the results depend on the processing

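With Mki67 and Top2a at 5 or more, the shares passing the rule were 9.21, 1.59, 3.41 and 1.09% at E11, E14, P0 and P7. With Slc1a3 and Fabp7 at 5 or more they were 6.80% at E11 and 1.63% at E14. Thinned to 5000 UMIs, they were 2.81, 1.27 and 3.34% of the cells of at least that depth at E11, E14 and P0. At a minimum of 20 CPM, 958 genes were lower than in the first resting glia, 375 higher and 586 lower than in precursors, and 231 higher and 63 lower than at P0. Against stricter resting glia 471 were lower, and the young neuron list turned from 8 of 10 genes lower to 8 of 9 higher. Against P0, 601 were higher and 343 lower with 1 CPM added, 675 and 308 for the 57 members with at most 5 Olig1 and Olig2 UMIs, and 1413 and 416 against run 1. Those 57 members had Egfr in 17.5% and carried the ependymal list in 0%. Of the 114 members with 5000 UMIs or more, thinned to 5000, 56.1% had Egfr, 82.5% Olig1 and 50% Olig2, and 95.6, 54.4, 7.89, 5.26, 83.3 and 41.2% carried the astrocyte, intermediate-progenitor, tanycyte, ependymal, oligodendrocyte precursor and young neuron lists. Where a split needed 2 UMIs, the astrocyte ratio was 1.05 for Egfr and 0.198 for Tesc, and the intermediate ratio for Tesc was 2.003. Between 8000 and 30000 UMIs the ratios for Egfr were 1.45 and 0.616.

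Against stricter resting glia these ratios crossed 1: Snhg11 1.48, Nrsn2 1.005, Resp18 1.28, Syngr3 1.15, Stmn2 1.27 and Syp 1.06. Against P0 run 1 the same held for CT010467.1 (2.16), Tsix (1.12), Hist1h3e (1.10), Hist1h2ae (1.98), Hist1h1b (5.69) and Hist1h2ab (1.14), and against P0 cells without Xist for Tsix (1.12). Of the repeats for named genes, 161 of 225 against the first resting group, 191 of 225 against precursors and 223 of 275 against P0 stayed within counting error, and 6, 0 and 7 changed direction. The cause of these shifts was not tested. Settings with Olig1, Olig2 or Xist limits, the stricter resting glia, a stricter precursor group, lists without Btg2, Gadd45g or Ptprz1, and sums without single cells were chosen after seeing the data. A planned repeat with 0 Olig1 and Olig2 UMIs left 3 cells and was not run. No paired analysis was possible because each age is 1 sample. Depth limits shares for genes of few UMIs, such as Tesc and Insm1.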
